A study of Mus musculus with 2 samples.

Results

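The genes described here encode inhibitors of proteases and their relatives: the serpins, the cystatins, the Kazal-type (Spink) and Kunitz-type (Spint) inhibitors, and the proteins with a whey acidic protein (WAP) domain, named Wfdc, together with Slpi. They were chosen by symbol, with earlier results of these data known. Of the 14860 genes with a probe set of their own on the array, 63 belonged to them. The samples were cultured mouse tracheal epithelial cells, 1 from wild-type mice (Gprc5a+/+) and 1 from Gprc5a knockout mice (Gprc5a−/−), both on a mixed C57 BL/6 × 129sv background and 3 weeks old. The cells received no treatment and grew exponentially in K-SFM, a serum-free medium for keratinocytes, to which 50 µg/ml bovine pituitary extract and 5 ng/ml EGF had been added. The labels name no restriction of the knockout to a tissue, and give neither how many mice each culture came from nor how long it had been grown. Each genotype was measured on 1 array, so every value is a single measurement with no replicate check, no error and no test, and a difference may belong to these cultures rather than to the genotype. In such bulk RNA, fewer cells of a type cannot be told apart from less RNA per cell.

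Protease inhibitors limit the enzymes that leukocytes, microbes and the epithelium itself release onto the airway surface. Serpins present a reactive loop as bait and trap the serine or cysteine protease that cuts it, and those of clade B mostly stay inside the cell, while those of clade A are mostly secreted by the liver. Cystatins block lysosomal cysteine proteases, Kunitz-type inhibitors of epithelia restrain membrane-bound serine proteases, and the WAP protein Slpi is a mucosal shield against neutrophil elastase and cathepsin G.

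Values are log2 probe set summaries. Differences are given as knockout minus wild type, and a fold is 2 raised to the size of the difference. A gene was counted when its higher value exceeded 6.90, the median of all probe sets with 1 gene symbol, called the level limit below. The background level was 5.05, the 95th percentile of 793 olfactory and vomeronasal receptor genes, which such cells are not known to use. The targeted gene Gprc5a was at 9.49 in wild-type cells and at 4.05, below background, in knockout cells. Of 12 markers of airway basal cells, the stem cells of the tracheal epithelium, 10 were above the level limit, among them Krt5 at 12.71 and 12.62 and Trp63 at 10.95 and 10.76. Pdpn, another basal marker, was the exception among these 10, with 10.62 in wild-type and 5.73 in knockout cells. None of 6 immune, 6 endothelial or 3 liver markers was above the limit, and of 10 fibroblast markers only Postn and Acta2 were, both through the knockout value.

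Most protease inhibitor genes were dim in both cultures, and those with signal mostly had similar levels. Of the 63 genes, 15 exceeded the level limit (23.8%, against 52.4% of all genes), and 42 were at or below background in both samples. Among the 15, Slpi was the single gene at least 2-fold higher in the knockout, where 4.56% of all genes above the limit were, and Serpinb2 and Serpinb1b were at least 2-fold lower, where 2.85% were. These are 6.67% and 13.3% of the 15, but a single gene moves such a share by 6.67 points, so nothing particular to these families is read from them. Of the other 12, 11 differed by less than 1.5-fold.

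Without the level limit, 1 of the 63 was at least 2-fold higher, against 3.34% of all genes, and 3 were at least 2-fold lower, against 2.11%. The gene added was Serpinb9b, which stood just under the limit. At 1.5-fold, Serpinb9 joined Slpi on the higher side, where 11.0% of all genes above the limit lay, and none joined on the lower side, where 7.54% lay. The median difference of all 63 was -0.03 on the log2 scale, the same as that of all genes (-0.03), and the median size of the difference was 0.19, against 0.20 for all genes.

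**Figure D1:**
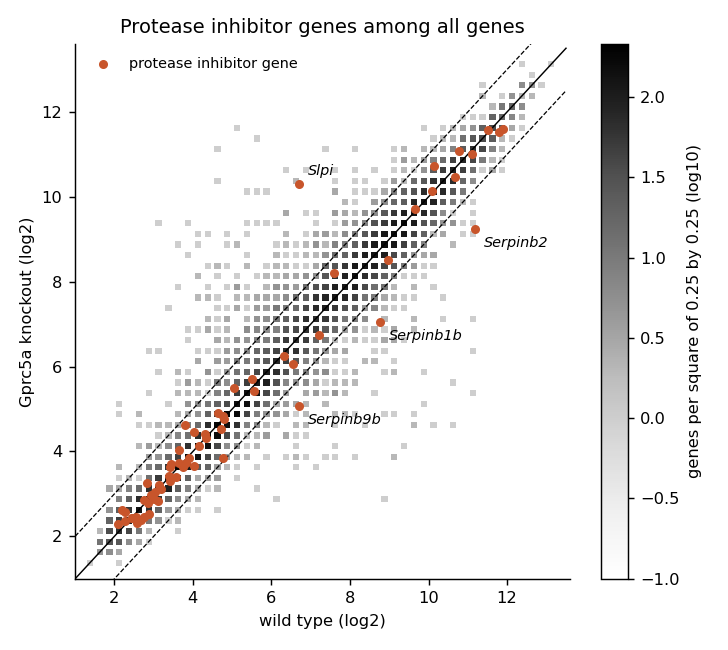
Log2 values of the wild-type array (x axis) and the Gprc5a knockout array (y axis). Grey squares show how many of the 14860 genes fall in each square, orange points are the 63 protease inhibitor genes, the solid line marks equal values and the dashed lines a 2-fold difference. Most orange points lie near equality at low values, and the 4 named genes lie outside the 2-fold lines.

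**Figure D2:**
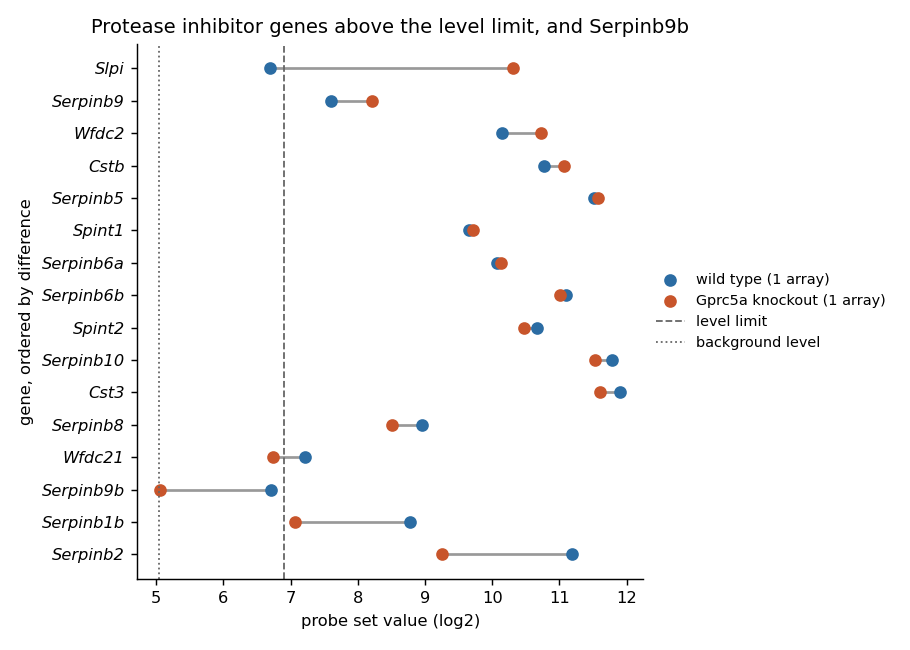
Log2 values of the 15 protease inhibitor genes above the level limit and of Serpinb9b in the wild-type array (blue) and the knockout array (orange), ordered by difference. The dashed line is the level limit of 6.90 and the dotted line the background level of 5.05. Slpi stands to the right in the knockout, and Serpinb2, Serpinb1b and Serpinb9b stand to the right in the wild type.

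Slpi, the secretory leukocyte protease inhibitor, read 6.69 in wild-type cells and 10.31 in knockout cells. The wild-type value lay just below the level limit and well above background, so the 12.3-fold difference did not rest on a value at background. The gene passed the limit through the knockout sample only, which favours a higher knockout value. When both samples had to exceed the limit, no inhibitor gene was at least 2-fold higher, against 2.14% of the 7118 genes left.

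Slpi is made by secretory cells of the airway, and some of their markers differed in the same direction. Of 9 club and secretory cell genes, Lcn2 (5.67 and 11.37), Cyp2f2 (6.48 and 9.63) and Ltf (4.68 and 7.32) had knockout values at least 2-fold higher, against the 4.56% of all genes above the limit. Like Slpi, each of them passed the limit through the knockout sample only, which favours a higher knockout value. The other member of this list above the limit was Wfdc2, the only one above it in both samples. The 5 others, the defining club cell gene Scgb1a1 (2.35 and 2.30), Scgb3a1, Scgb3a2, Bpifa1 and Bpifb1, were at or below background in both samples. The summed linear level of the 9 was 1358 in wild-type and 5337 in knockout cells, but Wfdc2 made up 83.2% of the first sum and Lcn2 49.5% of the second. Of 6 ciliated cell genes only Foxj1, their master regulator, was above the limit, at 6.22 and 8.97. It too passed through the knockout sample only. The summed level went from 151 to 590, but the 5 others were at or below background in both samples. The difference of that sum rested mainly on Foxj1. Levels of different probe sets are not comparable, so the sums and shares of both lists do not measure the make-up of the RNA. The part of secretory and ciliated cells in the Slpi value was not tested.

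Wfdc2, a secreted WAP protein of airway and reproductive tract epithelium and a member of that same marker list, read 10.14 in wild-type and 10.72 in knockout cells, a difference of 0.58. Wfdc21 read 7.21 in wild-type and 6.74 in knockout cells, 1.38-fold lower, and passed the limit through the wild type only. These levels differed little beside that of Slpi. The 9 other WAP genes were not above the limit, with values from 2.42 to 6.32 and differences from -0.19 to 0.46. Among them Wfdc1, at 6.32 and 6.26, and Wfdc15a, at 5.04 and 5.50, came above background in at least 1 sample. The others, Wfdc5, Wfdc6b, Wfdc12, Wfdc13, Wfdc15b, Wfdc16 and Wfdc18, were at background in both samples.

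Slpi stands on chromosome 2 in a row of WAP genes, and most of the row had no signal. In chromosome order the members there were Wfdc5, Wfdc12, Wfdc15a, Wfdc15b, Slpi, Wfdc2, Wfdc6b, Wfdc16, Wfdc13 and Spint4, and apart from Slpi and Wfdc2 none exceeded the limit. Of the 9 genes beside Slpi, 7 were at background in both samples and could show no difference, while Wfdc2 and Wfdc15a, the 2 with signal, were both somewhat higher in knockout cells, by 0.58 and 0.46. The nearest array genes on either side of Slpi were also dim: Svs5, a seminal vesicle protein gene, was at 4.20 and 4.14, and Matn4, a matrix protein gene, at 5.08 and 4.93.

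Clade B serpins made up 8 of the 15 genes above the limit and 3 of the 4 genes at 2-fold. Of 16 measured, 8 (50%) exceeded the limit, all of them in both samples, against 52.4% of all genes in at least 1 sample. Among the 8, none was at least 2-fold higher, and Serpinb2 and Serpinb1b were at least 2-fold lower. Of all genes above the limit in both samples, 2.14% were higher and 1.43% lower. With 8 genes a single gene exceeds either share. The family median was -0.10.

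Serpinb2, plasminogen activator inhibitor 2, which blocks urokinase, read 11.18 in wild-type and 9.25 in knockout cells. The difference of -1.93 (3.81-fold lower) lay between values that were both far above the limit. Serpinb1b read 8.77 in wild-type and 7.06 in knockout cells, 3.27-fold lower, with the knockout value close to the limit. It is a mouse paralog of the leukocyte elastase inhibitor gene, known in human as SERPINB1. Serpinb9b read 6.70 in wild-type and 5.06 in knockout cells. Its knockout value lay just above the background level, and with low values raised to background its difference stayed at -1.64. With a knockout value so close to background, the size of its fold remains uncertain. Serpinb1b and Serpinb9b have close paralogs, and the signal of their probes may not tell these apart.

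The other clade B genes above the limit differed by less. Serpinb9, an inhibitor of granzyme B that shields cytotoxic lymphocytes from their own granules, read 7.60 in wild-type and 8.21 in knockout cells, 1.53-fold higher. Serpinb8, whose human counterpart inhibits furin, was at 8.96 and 8.51. Serpinb10, known as bomapin from human bone marrow, was at 11.79 and 11.53, although the pan-leukocyte gene Ptprc was below background at 3.13 and 3.09. Serpinb5, maspin, a serpin of epithelia that is not known to inhibit proteases, was at 11.52 and 11.58. Serpinb6a, an intracellular inhibitor of trypsin-like proteases, was at 10.08 and 10.13, and its paralog Serpinb6b at 11.10 and 11.01. For these 4 genes and Serpinb8 the knockout and wild-type values lay within 1.5-fold.

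The other 7 clade B genes not above the limit were at or below background in both samples. Serpinb7, megsin, whose human counterpart is lost in a palmoplantar skin disease, had the largest difference among them, at 4.77 and 3.84, and since both values were at background no fold is given. It and Serpina3n below were singled out after their values were seen. Serpinb3d, Serpinb6c, Serpinb9c, Serpinb11, Serpinb12 and Serpinb13 had differences from -0.13 to 0.40.

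**Figure D3:**
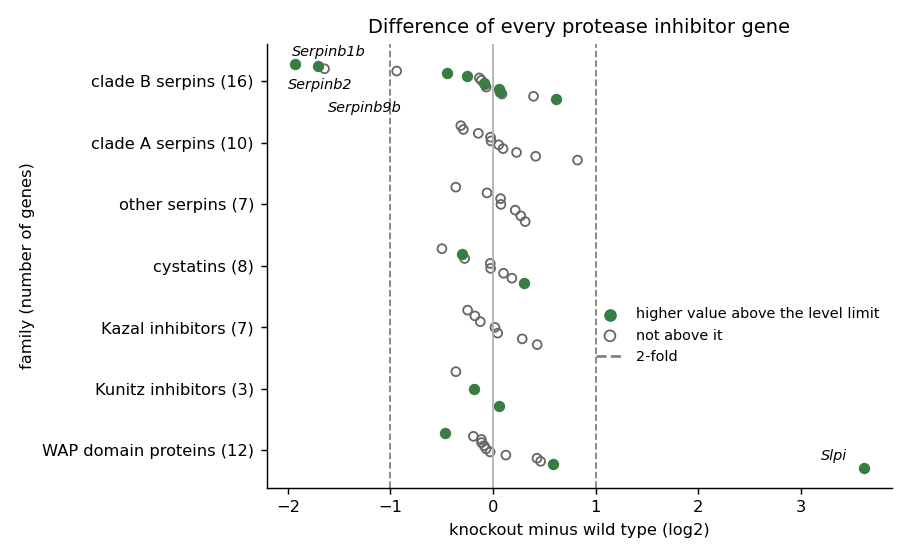
Knockout minus wild-type difference (log2, x axis) of each of the 63 genes, by family with the number of genes in brackets. Filled points are genes whose higher value exceeded the level limit, open points those that did not, and dashed lines mark 2-fold. Slpi lies alone on the right, and the 3 points beyond the left line are clade B serpins.

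The clade B genes lie in a row on chromosome 1 and another on chromosome 13, each with no gene of another family between its members among genes with a probe set of their own. On chromosome 1 the order was Serpinb5, Serpinb12, Serpinb13, Serpinb3d, Serpinb11, Serpinb7, Serpinb2, Serpinb10 and Serpinb8, and 4 of these 9 were above the limit. Next to Serpinb2, Serpinb7 (-0.94) was lower too but at background in both samples. The neighbours of Serpinb2 above the limit, Serpinb10 and Serpinb8, differed by -0.26 and -0.45, against -1.93 for Serpinb2. On chromosome 13 the order was Serpinb6b, Serpinb9, Serpinb9b, Serpinb1b, Serpinb9c, Serpinb6c and Serpinb6a, with 4 of 7 above the limit. Serpinb9b and Serpinb1b stood next to each other among the genes measured and had differences of similar size, -1.64 and -1.71, while Serpinb9 on one side was at 0.61 and Serpinb9c on the other at background.

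**Figure D4:**
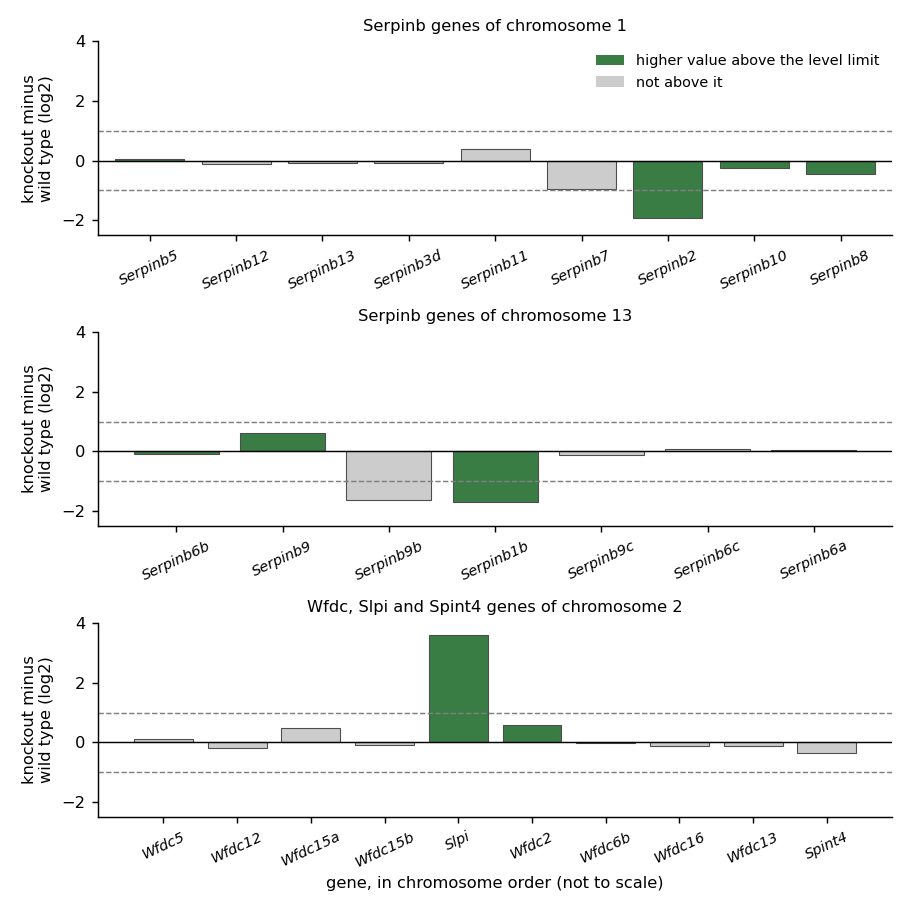
Knockout minus wild-type difference (log2, y axis) of the Serpinb genes of chromosome 1, the Serpinb genes of chromosome 13, and the Wfdc, Slpi and Spint4 genes of chromosome 2, in chromosome order and not to scale. Green bars are genes whose higher value exceeded the level limit, grey bars those that did not, and dashed lines mark 2-fold. Slpi has the largest bar. Serpinb9b stands beside Serpinb1b, both lower in the knockout, while Serpinb7 beside Serpinb2 was at background in both samples.

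Promoter windows of RefSeq, running from 250 bases before to 50 bases after a gene's start in build GRCm38.p6, were available for 45 of the 63 genes. Those of the genes at 2-fold and of Serpinb10, the near-level neighbour of Serpinb2, are shown to let the letters be set beside the differences. The Slpi window is chr2:164356458-164356757 on the minus strand, and the others are on the plus strand, at chr1:107511173-107511472 for Serpinb2, chr1:107528753-107529052 for Serpinb10, chr13:33083853-33084152 for Serpinb1b and chr13:33027164-33027463 for Serpinb9b. Capitals mark matches, on either strand, to the TATA box (TATAAA), to an AP-1 site (TGANTCA) or to a C/EBP site (TTGCNNAA), none of which overlap here.
Slpi: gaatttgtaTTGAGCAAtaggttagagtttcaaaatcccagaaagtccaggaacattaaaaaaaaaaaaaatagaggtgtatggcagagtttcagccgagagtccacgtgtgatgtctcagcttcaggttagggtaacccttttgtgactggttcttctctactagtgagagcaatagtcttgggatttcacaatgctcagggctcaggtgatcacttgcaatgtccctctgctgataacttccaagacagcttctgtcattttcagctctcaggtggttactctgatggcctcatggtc
Serpinb2: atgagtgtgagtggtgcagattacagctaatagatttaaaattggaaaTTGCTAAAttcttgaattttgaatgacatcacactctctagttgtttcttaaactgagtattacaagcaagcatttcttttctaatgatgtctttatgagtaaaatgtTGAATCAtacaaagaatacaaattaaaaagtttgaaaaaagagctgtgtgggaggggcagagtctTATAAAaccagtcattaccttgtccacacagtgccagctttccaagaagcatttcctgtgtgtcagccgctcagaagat
Serpinb10: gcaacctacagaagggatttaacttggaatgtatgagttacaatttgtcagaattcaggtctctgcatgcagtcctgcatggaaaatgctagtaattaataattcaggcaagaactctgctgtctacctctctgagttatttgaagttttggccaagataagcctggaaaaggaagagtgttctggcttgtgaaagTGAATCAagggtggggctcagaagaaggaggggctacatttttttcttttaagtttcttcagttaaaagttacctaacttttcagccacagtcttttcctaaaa
Serpinb1b: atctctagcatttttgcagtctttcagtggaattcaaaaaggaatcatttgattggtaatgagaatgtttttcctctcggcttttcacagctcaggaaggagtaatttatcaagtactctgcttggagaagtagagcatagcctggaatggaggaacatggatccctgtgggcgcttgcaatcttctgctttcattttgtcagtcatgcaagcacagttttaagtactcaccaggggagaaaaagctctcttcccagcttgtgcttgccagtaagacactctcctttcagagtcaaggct
Serpinb9b: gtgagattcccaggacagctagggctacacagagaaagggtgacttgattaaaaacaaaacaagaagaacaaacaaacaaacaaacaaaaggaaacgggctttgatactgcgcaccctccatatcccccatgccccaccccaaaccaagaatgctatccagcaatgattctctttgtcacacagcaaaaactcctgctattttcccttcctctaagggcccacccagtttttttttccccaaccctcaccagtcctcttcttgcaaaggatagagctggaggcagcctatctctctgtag

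Among these windows only that of Serpinb2 held all 3 motifs. Its TATA box began 29 bases before the start, its AP-1 match 94 bases and its C/EBP match 202 bases before. Serpinb2 had 2 windows, and the one shown was the first listed. In the other, the TATA box began 116 bases before the start of that window's transcript. An AP-1 match there began 181 bases and a C/EBP match 19 bases before. Serpinb10 held an AP-1 match 54 bases before the start, Slpi held a C/EBP match 241 bases before, and the windows of Serpinb1b and Serpinb9b held none of the 3. AP-1 is a dimer of Fos and Jun proteins that responds to growth factors, and C/EBP proteins act in epithelial and myeloid genes.

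The AP-1 letters were common along the chromosome 1 row of Serpinb genes. Of its 8 genes with a window, 7 held a match, namely all 4 above the limit (Serpinb2, Serpinb5, Serpinb8 and Serpinb10) and 3 of the 4 not above it (Serpinb7, Serpinb11 and Serpinb12), whereas none of the 7 on chromosome 13 did. In all genes with a window the share was 8.97%, for the TATA box it was 15.7% and for C/EBP 12.2%. Of the 45 inhibitor genes, 22.2% held an AP-1 match, 24.4% a TATA box and 24.4% a C/EBP match. The AP-1 share rested mostly on the chromosome 1 row, which gave 7 of the 10 genes with a match. Among the 30 inhibitor genes outside both Serpinb rows, 3 held one. The row's genes are paralogs and may share letters by descent. A match is a run of letters and not a bound site. In this row it occurred in genes with large, small and unmeasurable differences, and its relation to the differences was not tested.

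Serpins outside clade B were not detected at a useful level. None of 17 exceeded the limit, 15 were at or below background in both samples, and values ran from 2.26 to 5.71. In clade A, Serpina11 was at 5.56 and 5.42, Serpina9 at 4.78 and 4.76, and Serpina10, which inhibits coagulation factor X with protein Z, at 4.33 and 4.31. Serpina3n, an acute phase serpin of mice, was at 3.79 and 4.61, still under background. The others were Serpina3a, Serpina3b, Serpina5 (protein C inhibitor), Serpina6 and Serpina7 (carriers of corticosteroids and thyroxine) and Serpina12 (vaspin), with differences from -0.31 to 0.42.

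In the remaining clades, Serpinf1, pigment epithelium-derived factor, was at 5.49 and 5.71, the single one above background. Serpinf2, which blocks plasmin, was at 4.77 and 4.84, and Serpind1, heparin cofactor II, at 3.90 and 3.84. Serpinc1 (antithrombin), Serping1 (C1 inhibitor), Serpini1 (neuroserpin) and Serpini2 were at background in both samples. The probe sets of these genes showed no level from which a fold could be drawn.

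Both major cystatins were near level. Cst3, cystatin C, the secreted inhibitor of cathepsins, read 11.90 in wild-type and 11.60 in knockout cells, 1.23-fold lower. Cstb, stefin B, its counterpart inside the cell, was at 10.77 and 11.07, 1.23-fold higher, so the small differences ran in opposite directions. Cst6, cystatin M/E, an inhibitor of legumain and cathepsin L in skin, was just under the limit at 6.55 and 6.05. Cst9, Cst11, Cst12 and Cst13, known mainly from the reproductive tract, and Cst10 were at background, with differences from -0.28 to 0.18.

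The Kunitz inhibitors of the epithelial surface were also near level. Spint1, hepatocyte growth factor activator inhibitor 1, read 9.66 in wild-type and 9.72 in knockout cells. Spint2, its relative with overlapping targets, was at 10.66 and 10.48. The differences came to 1.04-fold and 1.14-fold, in opposite directions. Spint4 was at background, at 2.89 and 2.53.

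All 7 Kazal inhibitors measured were at or below background in both samples. Spink4 was at 4.63 and 4.92, Spink2, an acrosin inhibitor of sperm, at 3.75 and 3.63, and Spink7, known from human oesophagus, at 3.56 and 3.39. Spink1 (the pancreatic trypsin inhibitor), Spink8, Spink10 and Spink12 had values from 2.19 to 3.04.

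The proteases that these inhibitors meet, and inhibitors of other families, were examined through lists chosen with earlier results of these data known. In the plasminogen system, the territory of Serpinb2, 8 of 11 genes exceeded the level limit, 1 lay at least 2-fold higher, none lay 2-fold lower, and the median difference was 0.02. For this list and those that follow, 4.56% of all genes above the limit were higher and 2.85% lower at 2-fold, and with 8 or 9 genes above the limit a single gene exceeds either share. The gene was Lrp1, an endocytic receptor that clears complexes of proteases with their inhibitors, with 7.11 in wild-type and 8.90 in knockout cells. Plau, urokinase itself, was at 9.05 and 9.51, and its receptor gene Plaur at 7.51 and 7.05. The tissue-type activator gene Plat was at 7.48 and 6.87, and the coagulation starter F3, tissue factor, at 9.90 and 9.41.

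Membrane-bound serine proteases differed in both directions. Of 19 measured genes of this list, which includes the growth factor gene Hgf and its receptor gene Met, 9 were above the limit, 1 was at least 2-fold higher and 2 at least 2-fold lower, with a median of 0.07. Those lower were Tmprss11d, the human airway trypsin-like protease's mouse counterpart, at 8.17 and 5.98, and Tmprss11b, at 8.74 and 6.96. Tmprss11d passed the limit through the wild type only, which favours a lower knockout value, and the knockout value of Tmprss11b was close to the limit. Tmprss11e was higher, at 7.96 and 9.30. Prss8, prostasin, a target of both Spint proteins, was at 7.98 and 8.88, 1.87-fold higher, and its partner St14, matriptase, at 10.93 and 10.83.

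Cysteine proteases, the targets of Cst3 and Cstb, were mostly near level. Of 12 genes in the cathepsin list, 8 were above the limit and 1, Ctsz, was at least 2-fold higher, with 8.08 in wild-type and 10.22 in knockout cells, while the list's median was -0.09. Ctso was at 6.86 and 7.45, Ctsl at 12.49 and 12.18, and Ctsa, a lysosomal serine enzyme kept in this list, at 11.31 and 11.70. Ctsz stood apart from the rest of its list.

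The proteases of leukocytes, against which Slpi and Serpinb1 proteins are best known, were dim. None of 12 was above the limit, and Elane, neutrophil elastase, at 5.75 and 5.49, and Prtn3, proteinase 3, at 5.46 and 5.29, were the only ones above background in either sample. None of 6 kallikreins, which act in shedding skin, was above the limit, with Klk8 at 6.03 and 6.59 and Klk4 at 6.08 and 6.10.

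Among inhibitors of other families, 9 of 29 were above the limit, and of these 2 lay 2-fold or more above and 1 lay 2-fold or more below the wild type, while 6 differed by less than 1.5-fold. The list's median was -0.05, and 18 of the 29 were at or below background in both samples. Timp3, an inhibitor of metalloproteinases, read 4.67 in wild-type and 11.18 in knockout cells, and Pi15, a secreted relative of venom allergen proteins, at 4.27 and 6.98. Tfpi, the Kunitz-type inhibitor of tissue factor, went the other way, at 7.02 and 3.56. With low values raised to background these differences were 6.14, 1.93 and -1.97. Timp3, Pi15 and Tfpi each passed the limit through 1 sample only, which favours a difference. Aplp2, an amyloid precursor relative with a Kunitz domain in some isoforms, was at 11.43 and 11.21.

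**Figure D5:**
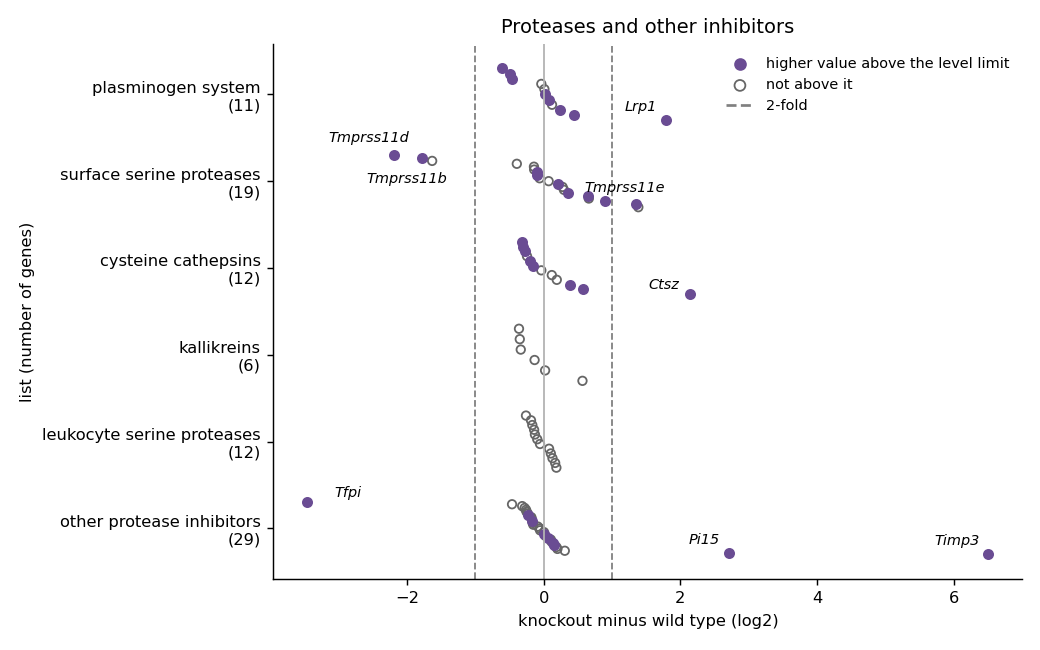
Knockout minus wild-type difference (log2, x axis) of genes of the plasminogen system, surface serine proteases, cathepsins, kallikreins, leukocyte serine proteases and other protease inhibitors, with the number measured in brackets. Filled points are genes whose higher value exceeded the level limit, open points those that did not, and dashed lines mark 2-fold. Genes above the limit and beyond 2-fold are named, with Timp3 far to the right and Tfpi far to the left.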

How the data were processed

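Total RNA was measured on 1 Affymetrix array per genotype, from 250 ng RNA, and the precision is limited by these 2 arrays. The authors deposited log2 values made with RMA in Affymetrix Expression Console, per the submitters' processing notes. Versions, filters and genome build were not given in the sources used here. The sorted columns differ by at most 0.17, so a shift of all genes together could not be seen.

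Of 23332 probe sets, 14996 had 1 gene symbol in the platform annotation, 1019 several and 7317 none. The brightest probe set stood for each of 14860 genes, and each of the 63 members had a single one. Their Entrez IDs all matched RefSeq GRCm38.p6, which served for names and gene order and supplied the promoter windows. Levels of different probe sets are not comparable.

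No test was possible. Differences, counts and medians were computed with pandas 2.3.3 and numpy 2.4.6. Only the choice of probe set and the calls at 2-fold were checked on simulated data. The members and lists were chosen with earlier results of these data known. Named were Gprc5a, every member above the level limit or at 2-fold, the 3 brightest of sparse families, and up to 4 genes of each related list with the largest difference above the limit, or the 2 brightest where none was above it. Plau, St14 and the markers quoted were added.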

Additional observations from a re-analysis of the deposited data

How the results depend on the processing

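The counts of inhibitor genes at 2-fold (1 higher and 2 lower) stood with low values raised to background, with the median difference subtracted, with the columns quantile-normalized again, and with a level limit of 6.76 from all probe sets with any gene symbol, an alternative chosen after seeing the data. Without the limit, 1 was higher and 3 lower. With both samples above the limit, 0 were higher and 2 lower, by construction, since Slpi was below it in the wild type. At 1.5-fold, 2 were higher and 2 lower. The median difference ran from -0.09, over the members above the limit in both samples, to 0 with low values raised. Subtracting the median difference or normalizing again left each of the 16 member genes with a main value on its side of 2-fold. Their signs held too. Raising low values could change none of these genes, since all their values lay above background. Averaging probe sets could change no member, since each had a single one. No paired analysis was possible because each group holds 1 sample. Serpins, cystatins and Kazal inhibitors at background have no measurable fold on these arrays, and no error can be given for any difference.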

Other observations

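Some inhibitor genes were represented only by probe sets that several paralogs share, which kept them out of the counts. There were 8 such probe sets, covering 11 genes. The probe set of Serpinb1a and Serpinb1c, paralogs of Serpinb1b on the same row, read 5.37 in wild-type and 5.57 in knockout cells, a difference of 0.21, whereas Serpinb1b had a difference of -1.71. Of 3 probe sets shared by the 5 genes Serpina1a to Serpina1e, the antitrypsins of mice, 1 was above background in the wild type, at 5.61 against 4.83 in the knockout, and the other 2 were at background in both. The 4 probe sets shared by Serpinb9d, Serpinb9e, Serpinb9f and Serpinb9g, with values from 2.20 to 4.12, were at background too, unlike Serpinb9.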
